A study of Mus musculus with 18 samples.

Results

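The genes examined here encode the enzymes and transporters of glycolysis and the transcripts that cells raise when oxygen is short. The list names 38 mouse genes, and each was found in the table by its Ensembl identifier with the version dropped, so that 38 of 54446 genes are described. They comprise 3 glucose and lactate transporters, 15 glycolytic enzymes, 3 flux regulators, 3 genes of oxygen sensing, 13 genes of the low-oxygen response and the cytokine gene Mif. All 38 had a row, and 37 passed the filter on low values in every comparison. Pfkm, the muscle form of phosphofructokinase, did not pass, and its highest normalized count in any library was 17.1.

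RNA was sequenced from mouse eosinophils cultured with apoptotic cells (ACs), to learn how ACs bear on eosinophils activated towards a Type 1 or a Type 2 state. By the study's methods the eosinophils came from the peritoneum of NJ.1638 Il5Tg mice, in which an IL-5 transgene raises eosinophil numbers, they were purified again with anti-Siglec-F beads after the culture, and the ACs were wild-type thymocytes killed with dexamethasone. The strain is given as C57BL/6. The Type 1 experiment (12 libraries, 3 in each group) held a group with ACs and no stimulus, and groups with ACs and E. coli, with ACs and IFN-γ, or with ACs and both, IFN-γ preceding E. coli. The IL-4 experiment (6 libraries, 3 in each group) held a group with ACs and no stimulus and a group with ACs and IL-4. ACs were thus present in every group, at 5 ACs per eosinophil for 18 h in the cultures the methods describe. The ACs libraries were assigned to an experiment by the naming style that they share with its stimulated libraries.

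In glycolysis, glucose enters the cell through carriers such as GLUT1, is split by a chain of cytosolic enzymes into pyruvate, and leaves as lactate when pyruvate is not burnt in mitochondria. The transcription factor HIF-1α raises most of these genes. Prolyl hydroxylases (the Egln genes) use oxygen to mark HIF-1α for destruction through VHL, and in immune cells inflammatory signals can raise HIF-1α while oxygen is present.

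Reads on genes ranged from 2216917 to 5078760 in the Type 1 experiment and from 779421 to 7782072 in the IL-4 experiment, where replicate 3 of each group was the shallowest (779421 with ACs and 849705 with IL-4). The eosinophil markers Siglecf, Ccr3 and Alox15 were at 1514 or above in all libraries, while Epx, which encodes eosinophil peroxidase, was at 25.7 or below. Prg3 was at 26.8 or below, Ear1 at 77.1 or below, Ear2 at 257 or below, Prg2 at 270 or below and Il5ra at 455 or below. Cd300lf was at 1181 or above, and Ear6 ranged from 336 to 8689. Alox15, at 5145 to 11929, was the largest term of the eosinophil sums below in every library. The normalized counts of 11 eosinophil markers, all detected in each group, summed to 17918 to 19312 with ACs in the Type 1 experiment, 19479 to 20985 with E. coli, 11888 to 13284 with IFN-γ and 16248 to 19049 with both. In the IL-4 experiment they summed to 22695 to 24986 with ACs and 25515 to 28399 with IL-4. Transcripts listed as macrophage markers were also abundant. How particular the marker lists are to their cell types in these libraries was not tested. The normalized counts of 12 macrophage markers, all detected, summed to 19761 to 25438 with ACs in the Type 1 experiment, 10819 to 13294 with E. coli, 32017 to 42380 with IFN-γ and 13107 to 14248 with both. In the IL-4 experiment they summed to 29468 to 43454 with ACs and 23370 to 38832 with IL-4. The 6 red cell markers had mean sums of 2969 with ACs, 6412 with E. coli, 10160.2 with IFN-γ and 4964 with both, and of 925 and 689 in the IL-4 groups. The 7 B cell markers summed to 903 to 1046 with ACs in the Type 1 experiment and to at most 571 elsewhere, and the 14 thymocyte markers to 69.2 to 501 in any library, with Dntt at or near 0. The 11 neutrophil markers summed to 1663 to 5053 in any library, and the 6 mast cell markers to at most 66.5.

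HIF-1 binds DNA at a short core, ACGTG or GCGTG. The bases before the transcription start are shown for Egln3, Bnip3, Ankrd37 and Pgk1, which differed widely between conditions, and for Ddit4, which went the other way. They are from RefSeq promoter windows on GRCm38.p6, limited to the 250 bases before the start and written 5′ to 3′ along the gene, and capitals mark a match to either core on either strand, so that CACGT and CACGC are cores of the other strand.
Egln3 (chr12:54203875-54204124, minus strand): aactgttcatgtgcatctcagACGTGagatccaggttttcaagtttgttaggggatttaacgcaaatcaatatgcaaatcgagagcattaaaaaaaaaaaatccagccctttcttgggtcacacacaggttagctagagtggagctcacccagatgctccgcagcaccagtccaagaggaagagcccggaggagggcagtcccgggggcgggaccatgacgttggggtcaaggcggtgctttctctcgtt
Bnip3 (chr7:138909507-138909756, minus strand): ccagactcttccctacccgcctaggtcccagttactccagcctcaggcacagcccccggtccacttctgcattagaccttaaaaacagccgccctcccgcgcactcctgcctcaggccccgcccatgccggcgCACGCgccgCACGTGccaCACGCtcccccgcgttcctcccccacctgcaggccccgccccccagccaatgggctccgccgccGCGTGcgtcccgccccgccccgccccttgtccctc
Ankrd37 (chr8:45999851-46000100, minus strand): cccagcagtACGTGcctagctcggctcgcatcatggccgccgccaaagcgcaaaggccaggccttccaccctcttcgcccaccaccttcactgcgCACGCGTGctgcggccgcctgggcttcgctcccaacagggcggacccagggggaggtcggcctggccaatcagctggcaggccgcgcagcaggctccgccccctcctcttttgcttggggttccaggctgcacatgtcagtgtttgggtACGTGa
Pgk1 (chrX:106186850-106187099, plus strand): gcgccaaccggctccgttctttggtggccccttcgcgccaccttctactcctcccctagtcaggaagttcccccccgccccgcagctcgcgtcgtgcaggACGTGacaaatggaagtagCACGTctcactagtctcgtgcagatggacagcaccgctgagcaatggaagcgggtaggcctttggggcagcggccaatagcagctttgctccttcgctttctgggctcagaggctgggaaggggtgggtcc
Ddit4 (chr10:59951771-59952020, minus strand): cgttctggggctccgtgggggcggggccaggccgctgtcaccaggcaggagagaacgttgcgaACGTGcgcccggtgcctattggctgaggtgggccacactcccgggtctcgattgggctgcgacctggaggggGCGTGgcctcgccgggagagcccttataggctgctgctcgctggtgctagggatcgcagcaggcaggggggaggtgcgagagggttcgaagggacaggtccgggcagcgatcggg
Egln3 held 1 match, 229 bases before the start, whereas Bnip3 held 5, Ankrd37 held 4, Pgk1 held 2 and Ddit4 held 2. A run of CACGTG, which is also the E-box that MYC-family proteins bind, matches on both strands and was counted for each strand. RefSeq windows were found for 34 of the 38 genes, 52 windows in all since some genes have several starts, and none for Slc2a3, Ndrg1, Bnip3l and Ero1l. Over windows of 250 bases before and 50 after the start, ACGTG was present in 55.8% of the members' windows and in 19.6% of all 32851 mouse windows, and GCGTG in 55.8% and 32.4%. Either core was present in 80.8% and 43.8%. A match describes the letters of the window and does not show that HIF-1 bound there.

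In the Type 1 experiment most of the genes were lowest with ACs alone and highest with IFN-γ and E. coli together. The mean was highest with both stimuli for 33 of 38 genes and lowest with ACs alone for 28. These counts include Pfkm, which did not pass the filter, and the same order was not counted over all genes. A call required an adjusted p under 0.05 (limma, Benjamini-Hochberg over all genes tested) and a difference of at least 1.5-fold, and fold changes are on the scale of log2(normalized count + 1). The 3 stimulated groups were compared with the same 3 ACs libraries, so their values stand side by side and do not support each other.

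**Figure D1:**
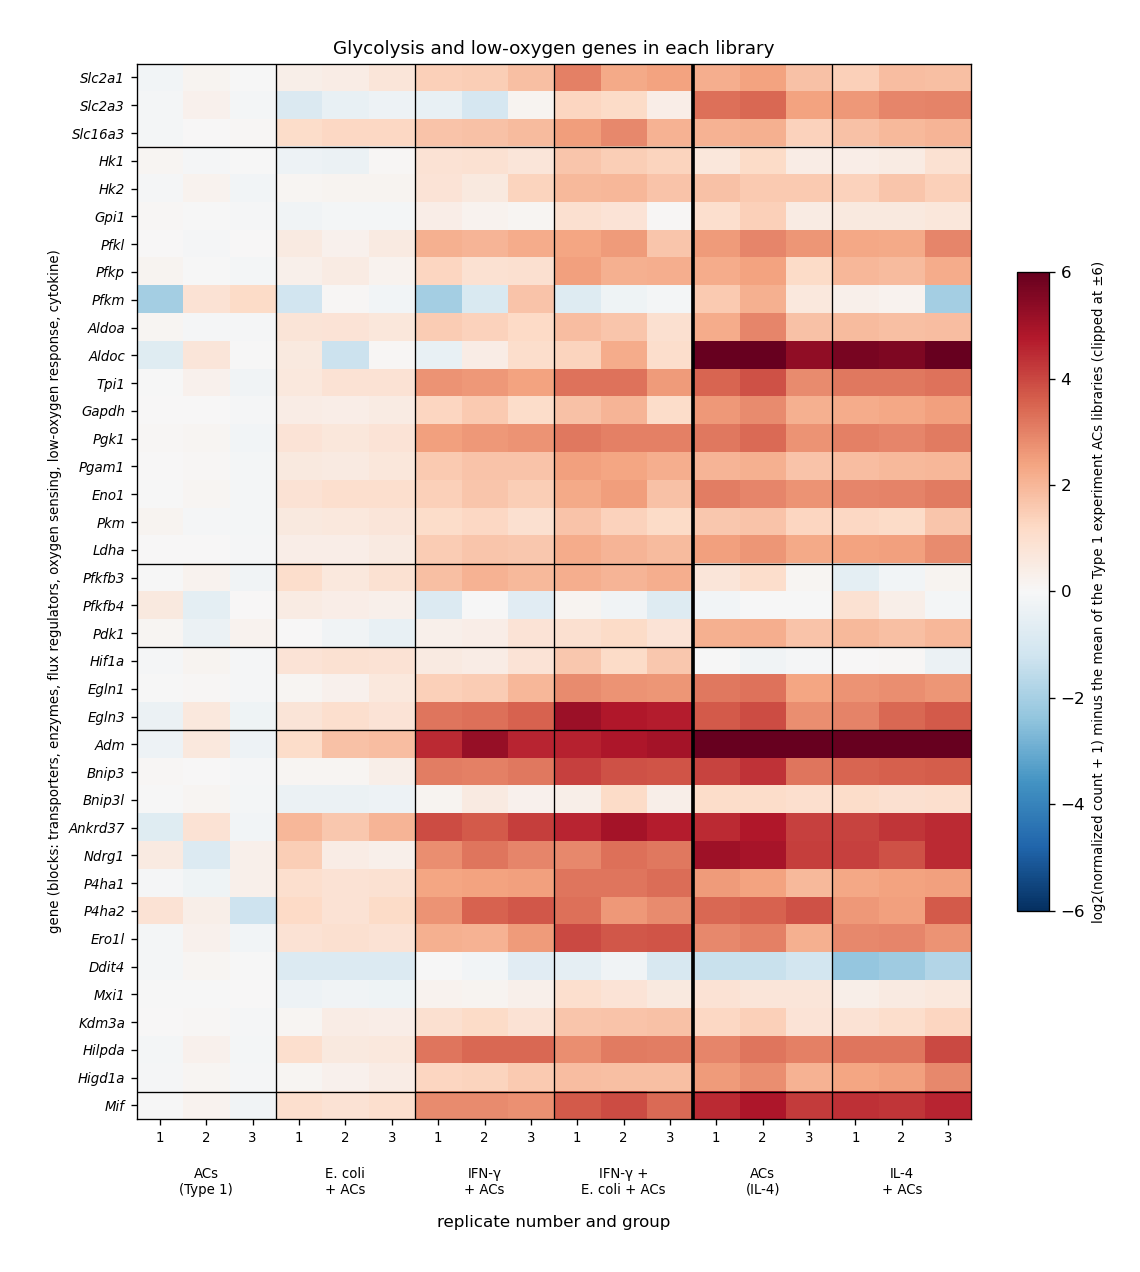
Each of the 38 genes (rows) in each of the 18 libraries (columns, 3 replicates in each of 6 groups), coloured by log2(normalized count + 1) minus the mean of the 3 ACs libraries of the Type 1 experiment. Left of the thick line most rows darken from ACs to both stimuli, Ddit4 is blue with E. coli, and right of it both groups of the IL-4 experiment are red in most rows.

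With E. coli, 15 of 37 genes tested were higher and 1 was lower than with ACs alone. Over all genes, 5.05% were called higher and 5.25% lower. The median log2 difference of the members was 0.51, against -0.004 over all 10166 genes. With IFN-γ, 29 of 37 were higher, where 11.4% of all genes were higher and 9.96% lower, and the members' median was 1.57, against 0 over all genes. None was called lower by limma, edgeR or DESeq2, and 0 were lower at an unadjusted p under 0.05 by any of them. With both stimuli, 34 of 37 were higher, where 14.7% of all genes were higher and 17.2% lower, and the median was 2.17, against -0.047. None was called lower by these tools, and 1 was lower at an unadjusted p under 0.05 in each. Libraries of a group gave like values, the members' median over the ACs mean being 0.58, 0.45 and 0.62 with E. coli, 1.45, 1.55 and 1.64 with IFN-γ and 2.26, 2.21 and 1.90 with both. The sums of the eosinophil markers were below those with ACs alone in all IFN-γ libraries, above them in all E. coli libraries and overlapping with both stimuli, and 6, 3 and 3 of 11 markers were below the ACs libraries without overlap with IFN-γ, with E. coli and with both, while 2, 5 and 3 were above. The macrophage sums were above ACs in all IFN-γ libraries, as most members were, and below in all libraries with E. coli or both. Of the 12 macrophage markers, 7 were above ACs and 1 below with IFN-γ, 1 above and 9 below with E. coli, and 3 above (Adgre1, Mertk and Marco) and 7 below with both. The red cell sums were above ACs in all E. coli and IFN-γ libraries and in 2 of 3 with both. In bulk RNA, fewer cells of a type and less RNA per cell cannot be told apart, and the part of these shifts in the results was not tested.

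**Figure D2:**
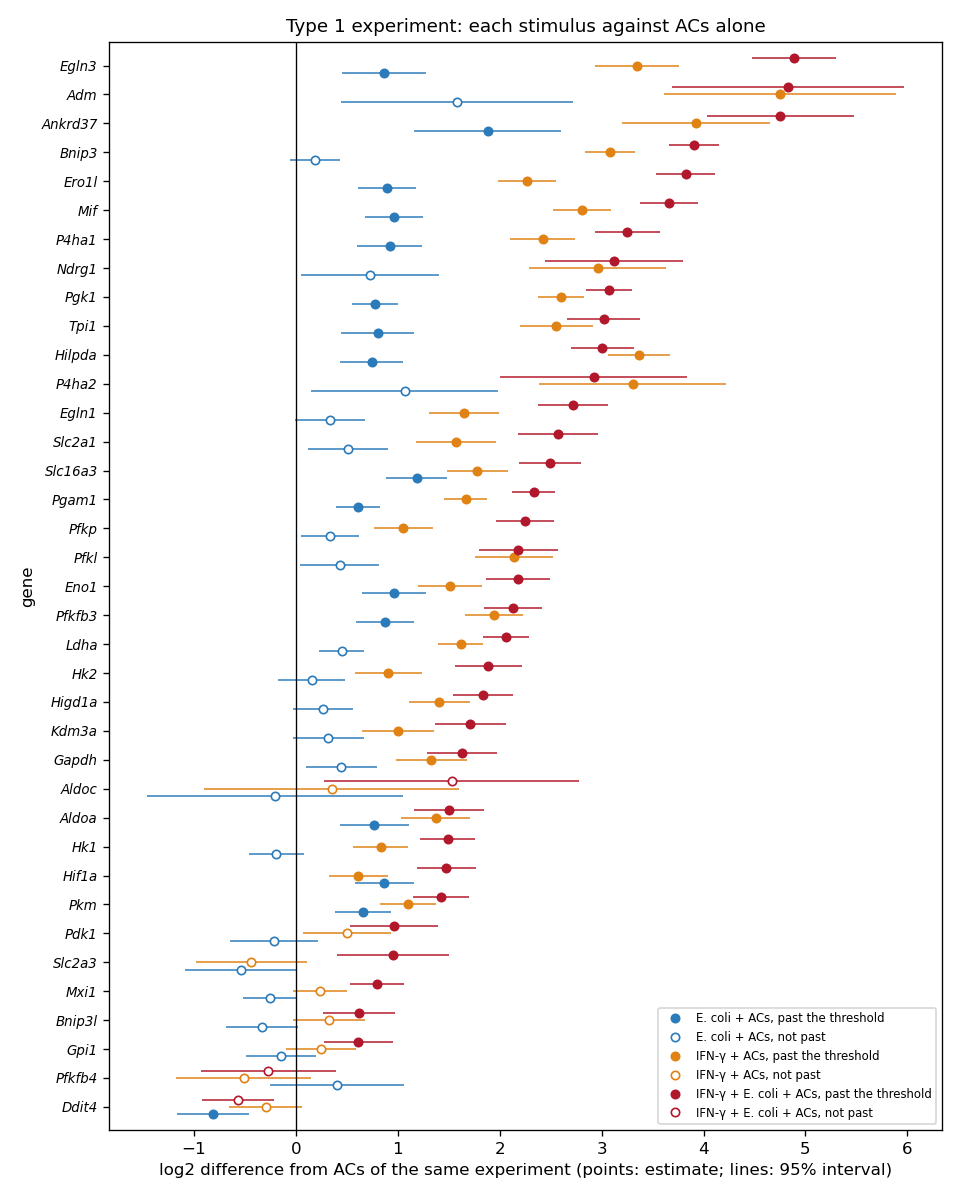
Log2 difference of each stimulated group from ACs alone in the Type 1 experiment (x axis) for the 37 genes tested (y axis), with 95% intervals from limma and filled points past the threshold. The points for both stimuli reach 4.89 for Egln3, while Ddit4 is below 0 in all 3 comparisons.

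Among the transporters, Slc16a3 (MCT4, which carries lactate out of the cell) had normalized counts of 606, 667 and 680.2 with ACs, 1382, 1540.2 and 1526 with E. coli, 2118, 2209 and 2389 with IFN-γ and 3738, 4727 and 2788 with both. The 4 groups did not overlap. Its log2 differences from ACs were 1.19 ± 0.14 (SE), 1.78 ± 0.14 and 2.49 ± 0.14, all past the threshold (limma, adjusted p = 1.1e-05, 1.8e-08 and 1e-10). Slc2a1 (GLUT1, the main glucose carrier of many activated leukocytes) was at 97.6, 125 and 109 with ACs, 139.8, 150.4 and 186 with E. coli, 297, 305 and 392 with IFN-γ and 894, 539 and 593 with both. It rose 2.97-fold with IFN-γ and 5.94-fold with both (adjusted p = 3.2e-06 and 3.1e-09), and the E. coli libraries lay above ACs without passing the test (log2 0.51 ± 0.19, adjusted p = 0.08).

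Slc2a3 (GLUT3, a glucose carrier of high affinity) had another pattern. Its counts were 211, 274 and 216 with ACs, 125, 172 and 187 with E. coli, 169, 113 and 261 with IFN-γ and 574, 517 and 308 with both. The libraries with both stimuli were above all others, and 5 of 6 with a single stimulus were below all ACs libraries. Neither single stimulus passed the threshold (log2 -0.54 ± 0.26 and -0.44 ± 0.26, adjusted p = 0.2 and 0.23), and the combination did (0.95 ± 0.26, adjusted p = 0.0071). Without the libraries numbered 3 Slc2a3 was called lower with IFN-γ (log2 -0.79, adjusted p = 0.021), and without those numbered 1 the rise with both was lost (0.71, adjusted p = 0.15).

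Of 14 glycolytic enzymes tested, 6 were called higher with E. coli, 12 with IFN-γ and 13 with both. The shares of all genes called higher were 5.05%, 11.4% and 14.7%. Pgk1, phosphoglycerate kinase, which makes the first ATP of the pathway, was at 1242, 1309 and 1067 with ACs, 2121, 1911 and 2155 with E. coli, 6658, 7394 and 7874 with IFN-γ and 10834, 9821 and 9705 with both. The 4 groups were separate. Pgk1 rose 1.71-fold, 6.06-fold and 8.41-fold (log2 0.78 ± 0.11, 2.60 ± 0.11 and 3.07 ± 0.11, adjusted p = 5.3e-05, 1.5e-12 and 9.2e-14). Tpi1, triose phosphate isomerase, rose 1.74-fold, 5.88-fold and 8.13-fold, with means of 410.0, 709.7, 2400.1 and 3394 in the same order of groups, ACs first.

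Pgam1 (phosphoglycerate mutase), Eno1 (enolase), Pkm (pyruvate kinase) and Aldoa (aldolase) also rose with each stimulus. The means of Pgam1 were 4647, 7079, 14741 and 23445, and those of Eno1 454, 882, 1296 and 2092. Pkm rose 2.68-fold and Aldoa 2.83-fold with both stimuli. With E. coli, Eno1 rose 1.94-fold (adjusted p = 0.00018), while the calls of Pgam1 and Pkm were lost without the libraries numbered 3 (log2 0.52 and 0.56) and Aldoa without those numbered 2 (adjusted p = 0.067). Aldoa shares sequence with Aldoart1, which reached 200.1 in 1 library, and Eno1 with Eno1b, which reached 48.1, so how such reads were split is uncertain. A second row with the name Aldoa was at 0 in all libraries and was left out.

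Ldha, lactate dehydrogenase A, which turns pyruvate into lactate, was at 1819.9, 1804 and 1712 with ACs, 2311, 2373 and 2617 with E. coli, 5124, 5706 and 5543 with IFN-γ and 8450.3, 7284 and 6647 with both. No group overlapped another. The E. coli difference had an adjusted p of 0.0069 but was 1.37-fold and not called, while those with IFN-γ (3.07-fold) and with both (4.17-fold) were called. Gapdh (glyceraldehyde 3-phosphate dehydrogenase), often used as a constant reference gene, had means of 1079, 1471, 2732 and 3455 and rose 2.51-fold with IFN-γ and 3.10-fold with both (adjusted p = 5.7e-06 and 2.8e-07).

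The first steps of the pathway were called with IFN-γ and with both, and not with E. coli. Hk1 and Hk2, the hexokinases that trap glucose in the cell, had means of 611, 539, 1088 and 1725 and of 494, 546, 943 and 1826. The phosphofructokinases Pfkl and Pfkp, which commit sugar to glycolysis, rose 4.41-fold and 2.08-fold with IFN-γ and 4.54-fold and 4.75-fold with both. Gpi1, glucose phosphate isomerase, passed only with both stimuli together (1.53-fold, adjusted p = 0.0059). It was at 3511, 3238 and 3160.3 with ACs and 6323, 5889 and 3441 with both, so that the third library overlapped, and the call was lost without replicate 1 or 2 (adjusted p = 0.095 and 0.096). Aldoc, the aldolase of brain, was low in this experiment (means of 8.18, 7.36, 10.7 and 24.8). It missed the threshold with both stimuli (adjusted p = 0.051) and passed with edgeR (0.024) and DESeq2 (0.025).

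As for Gpi1, replicate 3 was the lowest library with both stimuli for 24 of the 38 genes, a pattern not counted over all genes. Aldoa was at 18689.5, 16410.2 and 10131 there and Tpi1 at 3953, 3874 and 2357. Without the libraries numbered 3, the number of genes called higher with both stimuli stayed at 34.

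Of the regulators of flux, Pfkfb3, whose product makes the activator of phosphofructokinase, was at 239.9, 279 and 211 with ACs, 499.8, 381 and 458 with E. coli, 847, 1016 and 942 with IFN-γ and 1093, 989 and 1098 with both. The libraries with IFN-γ and with both overlapped. It rose with each stimulus (log2 0.87 ± 0.14, 1.94 ± 0.14 and 2.13 ± 0.14). Pdk1, a kinase that restrains pyruvate dehydrogenase, rose with both stimuli (1.95-fold, adjusted p = 0.0011) and did not pass with either alone. Pfkfb4, the relative of Pfkfb3, averaged 52.5, 66.0, 35.5 and 42.4, and each stimulated group overlapped ACs.

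**Figure D3:**
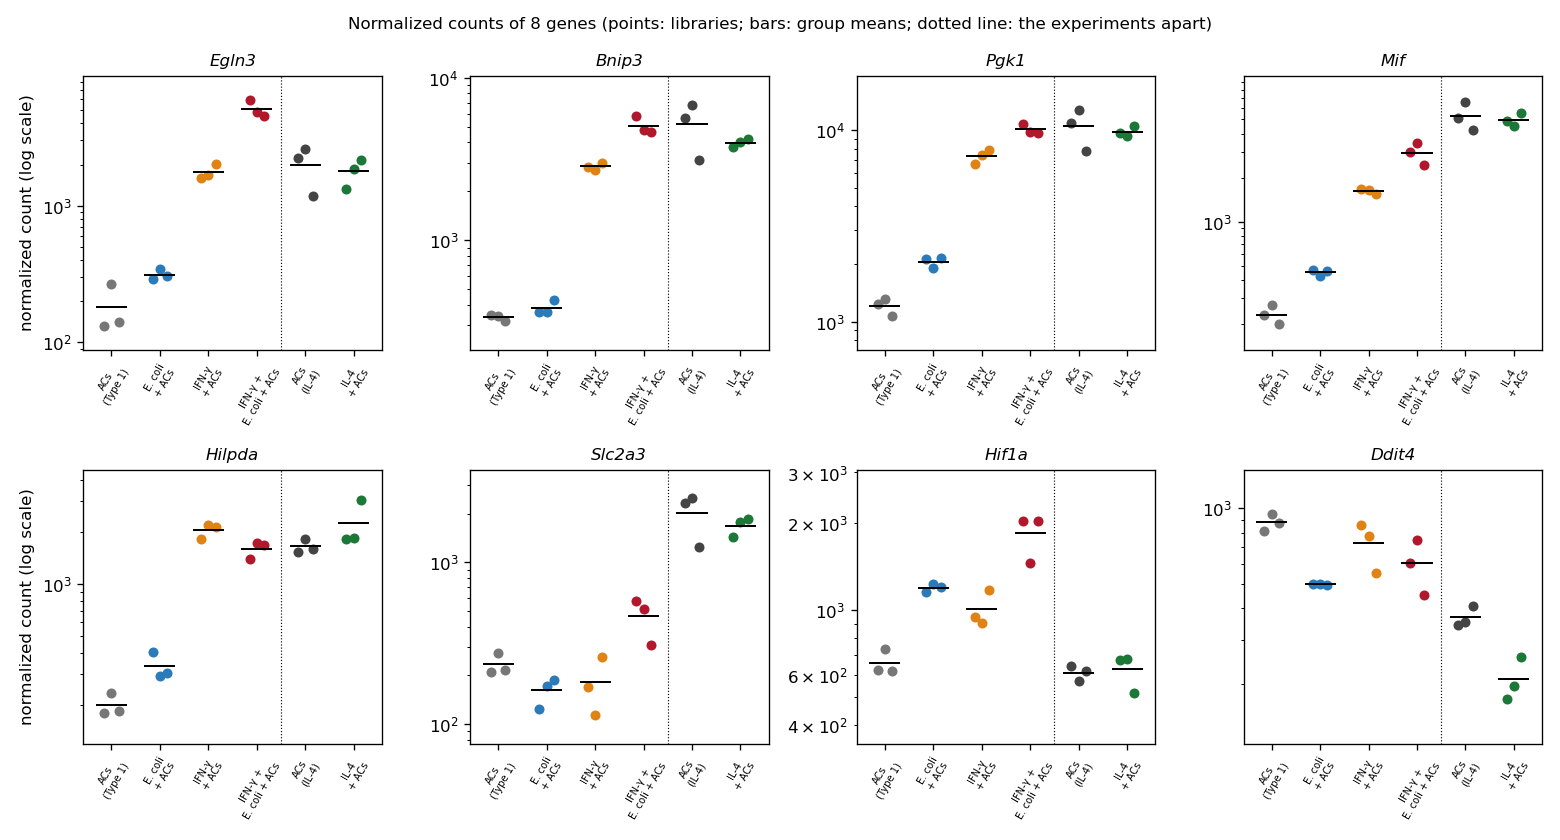
Normalized counts (log axes) of 8 genes in every library, with a bar at each group mean and a dotted line between the Type 1 and the IL-4 experiment. Egln3, Bnip3, Pgk1 and Mif step up from ACs to both stimuli, Hilpda is highest with IFN-γ in the Type 1 experiment, Slc2a3 is above its ACs libraries there with both stimuli, Hif1a overlaps between the ACs groups, and Ddit4 is highest with ACs alone in the Type 1 experiment.

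Of the oxygen-sensing genes, Hif1a itself was at 622, 738 and 617 with ACs, 1155, 1234 and 1208 with E. coli, 952, 908 and 1172 with IFN-γ and 2038, 1463 and 2046 with both. All stimulated libraries were above the ACs libraries. It rose 1.82-fold, 1.53-fold and 2.78-fold (adjusted p = 0.00022, 0.0025 and 9e-08). The rise with IFN-γ was near the 1.5-fold limit and was not called without the libraries numbered 3 (log2 0.46, adjusted p = 0.053), with the common upper quartile scaling (0.52) or with array weights (0.56).

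Egln3, the prolyl hydroxylase PHD3 and itself a target of HIF-1, was at 132, 267 and 141 with ACs, 289.6, 343 and 304 with E. coli, 1583, 1678 and 2017 with IFN-γ and 5926, 4869 and 4541 with both. The groups did not overlap, and 1 ACs library lay just under the lowest with E. coli. Egln3 rose 1.82-fold, 10.2-fold and 29.6-fold (log2 0.87 ± 0.20, 3.35 ± 0.20 and 4.89 ± 0.20, adjusted p = 0.0053, 2e-10 and 6e-13), and the call with E. coli was lost without replicate 1 (adjusted p = 0.1) or 3 (0.061). Egln1 (PHD2, the main oxygen sensor of most cells) had means of 129.8, 166, 414 and 861 and rose with IFN-γ (3.13-fold) and with both (6.59-fold).

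Of 13 low-oxygen response genes, 4 were higher and 1 lower with E. coli, 10 were higher with IFN-γ and 12 with both, and their median log2 differences were 0.72, 2.42 and 3.01. The shares of all genes called higher were 5.05%, 11.4% and 14.7%, and 5.25% were lower with E. coli. Bnip3, which marks mitochondria for removal, was at 347, 342 and 316 with ACs, 360.0, 363 and 426 with E. coli, 2836, 2692 and 3002 with IFN-γ and 5820.2, 4738 and 4648 with both. The E. coli libraries lay just above those with ACs (log2 0.19 ± 0.12, adjusted p = 0.33), and the other groups were far above. It rose by 3.08 ± 0.12 on the log2 scale with IFN-γ and by 3.91 ± 0.12 with both (adjusted p = 5e-13 and 1.5e-14). Its relative Bnip3l averaged 875, 693, 1100.4 and 1393 and passed only with both stimuli together (1.54-fold), a call lost without replicate 2 (log2 0.42, adjusted p = 0.028).

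Ero1l, which forms disulfide bonds in the endoplasmic reticulum, was at 731, 961 and 709 with ACs, 1445, 1542 and 1436 with E. coli, 3432, 3421 and 4728 with IFN-γ and 12430.2, 10569 and 10821 with both. These groups were separate. Ero1l rose 1.86-fold, 4.81-fold and 14.2-fold (adjusted p = 0.00015, 3e-10 and 1.1e-13). Ankrd37, an ankyrin repeat gene known as a HIF-1 target, was at 2.44, 9.38 and 4.08 with ACs, 21.8, 16.4 and 22.0 with E. coli, 84.4, 72.2 and 101 with IFN-γ and 134, 179.6 and 145 with both. It rose with each stimulus (log2 1.88 ± 0.34, 3.92 ± 0.34 and 4.75 ± 0.34), and the rise with E. coli was not called without replicate 1 (adjusted p = 0.055).

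Hilpda, whose product sits on lipid droplets and slows the breakdown of stored fat, was at 179, 233 and 184 with ACs, 403, 293 and 307 with E. coli, 1822, 2190.4 and 2138 with IFN-γ and 1388, 1732 and 1668 with both. All IFN-γ libraries were above those with both stimuli, though this difference did not pass (log2 -0.36 ± 0.15 for both against IFN-γ, adjusted p = 0.092). Hilpda rose 1.68-fold, 10.3-fold and 8.03-fold over ACs (adjusted p = 0.0017, 2.6e-12 and 9.8e-12), and the call with E. coli was lost without replicate 1 (adjusted p = 0.082). P4ha2, a subunit of the enzyme that hydroxylates collagen, averaged 8.55, 16.1, 82.6 and 61.8, with overlap between IFN-γ and both. P4ha1, the sister subunit, averaged 71.8, 135, 385 and 684 and rose with each stimulus.

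Adm, the gene of the vessel-relaxing peptide adrenomedullin, was nearly absent with ACs. Only 1 read was found over the 3 ACs libraries, against 10 with E. coli, 74 with IFN-γ and 78 with both. The ratio to ACs, per normalized depth, was 123 with IFN-γ (95% exact binomial interval 21.4 to 4920) and 122 with both (21.3 to 4890), and these intervals cover counting error only. Both differences passed the threshold (adjusted p = 1.9e-06 and 1e-06) and the E. coli one did not (0.063).

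Ndrg1, a stress gene of differentiating cells, averaged 26.1, 43.5, 196 and 219, Kdm3a, a histone demethylase, 68.6, 86.1, 139 and 227, and Higd1a, a small mitochondrial protein, 136, 164, 363 and 486. All 3 rose with IFN-γ and with both and did not pass with E. coli. Mxi1, a MYC antagonist, rose with both (1.74-fold) and did not pass with either alone.

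Ddit4 (REDD1, an inhibitor of mTORC1 that low oxygen normally induces) went the other way. It was at 812, 951 and 876 with ACs, 501, 501 and 495 with E. coli, 856, 774 and 552 with IFN-γ and 609, 751 and 454 with both. All E. coli libraries and all libraries with both stimuli were below the ACs libraries, and those with IFN-γ overlapped them. It fell with E. coli (log2 -0.81 ± 0.17, adjusted p = 0.0028) and did not pass with IFN-γ (-0.30 ± 0.17, adjusted p = 0.22). With both it was at -0.57 ± 0.17 (adjusted p = 0.013), short of 1.5-fold, and it was called lower without replicate 2 (-0.68) and with the upper quartile scaling (-0.71).

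Mif, a cytokine that HIF-1 also induces, was at 229, 267 and 199 with ACs, 469.6, 423 and 457 with E. coli, 1671, 1644 and 1541 with IFN-γ and 3005, 3442 and 2421 with both. Each group was above the one before it without overlap. Mif rose 1.95-fold, 7.01-fold and 12.7-fold (log2 0.96 ± 0.14, 2.81 ± 0.14 and 3.66 ± 0.14, adjusted p = 6.2e-05, 1.1e-11 and 1.8e-13).

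E. coli was then set directly against IFN-γ. Of 37 genes, 28 were lower with E. coli, where 9.84% of all genes were lower and 6.72% higher. The members' median log2 difference was -1.06, against 0.009 over all genes. Bnip3 (-2.89 ± 0.12, adjusted p = 3.2e-12), Hilpda (-2.62 ± 0.15, adjusted p = 1.7e-10) and Egln3 (-2.48 ± 0.20, adjusted p = 2.2e-08) were among them. The gene higher with E. coli was Pfkfb4 (0.92 ± 0.32, adjusted p = 0.046), at 69.5, 66.2 and 62.5 with E. coli and 27.7, 48.1 and 30.8 with IFN-γ, and this call was lost with edgeR (0.052), with DESeq2 (0.05) and without replicate 1, 2 or 3 (0.24, 0.053 and 0.16). Hif1a was not called (0.26 ± 0.14, 95% interval -0.04 to 0.55), nor were Slc2a3, Gpi1, Aldoc, Ddit4, Mxi1, Pkm and Eno1.

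**Figure D4:**
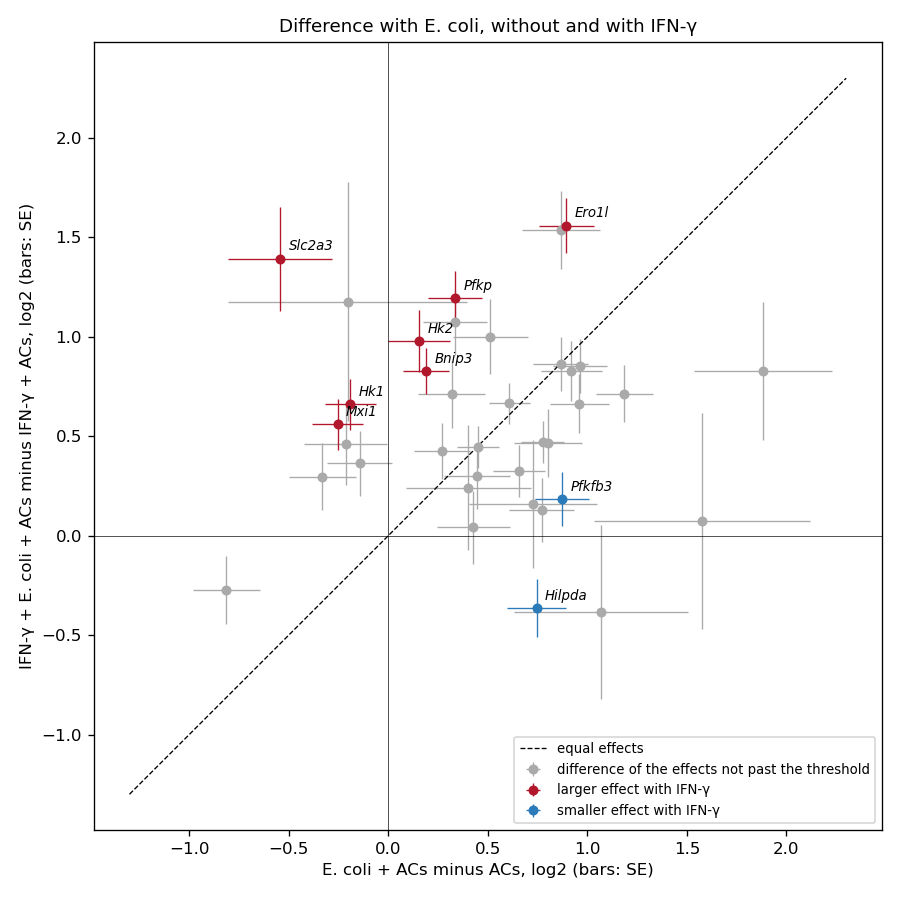
The E. coli difference without IFN-γ (x axis, against ACs) and with it (y axis, both stimuli against IFN-γ), in log2 with SE bars, for the 37 genes tested. Points on the dashed line have equal differences, and the 9 coloured genes are those where the differences were unequal past the threshold, 7 above the line and 2 below it.

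The E. coli difference could be compared without and with IFN-γ, since these contrasts share no library. With IFN-γ present, 16 of 37 genes were higher with E. coli, where 5.96% of all genes were higher and 8.61% lower, and the members' median was 0.56, against -0.028 over all genes. None was called lower by limma, edgeR or DESeq2 (1 at an unadjusted p under 0.05 in each). Ero1l (1.56 ± 0.14) and Egln3 (1.54 ± 0.20) rose most. The count of genes higher was 10 without the libraries numbered 1.

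The interaction asks whether the E. coli difference is unequal without and with IFN-γ. It passed for 9 genes, 7 with a larger difference in the presence of IFN-γ and 2 with a smaller one, where 3.16% and 4.28% of all genes were called, and the members' median was -0.004. Slc2a3 had the largest (1.94 ± 0.37, adjusted p = 0.003), its difference being -0.54 without IFN-γ and 1.39 with it. Pfkp (0.86 ± 0.19), Hk1 (0.85 ± 0.18), Hk2 (0.82 ± 0.22), Mxi1 (0.81 ± 0.18), Ero1l (0.67 ± 0.19) and Bnip3 (0.64 ± 0.16) also gained. Hilpda went from 0.74 without IFN-γ to -0.36 with it (-1.11 ± 0.21, adjusted p = 0.0026), and Pfkfb3 from 0.87 to 0.18 (-0.69 ± 0.19, adjusted p = 0.034). Without replicate 1 no gene was called, without replicate 2 the counts were 0 larger and 1 smaller (Hilpda), and without replicate 3 they were 9 and 1. Same-numbered libraries of the IFN-γ group and of the group with both deviated together, and with a replicate block within these groups the counts were 9 larger and 3 smaller, where 4.9% and 6.58% of all genes were called. This fit added Egln1 (0.74, adjusted p = 0.031), Bnip3l (0.63, 0.012) and Aldoa (-0.64, 0.0095).

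IL-4 was compared with the ACs libraries of its own experiment. With all 6 libraries weighted equally no member was called by limma, where 0.74% of all genes were higher and 0.347% lower. At an unadjusted p under 0.05, 4 members were lower and 0 higher with limma, 8 and 2 with edgeR, and 8 and 1 with DESeq2, and the last tools each called 2 lower (Pfkfb3 and Ddit4). With every gene above 0 limma also called 2 lower. With array weights, which let libraries count unequally, limma called 7 lower and 1 higher, where 3.34% and 3.65% of all genes were called. These were Pfkfb3 (log2 -1.12, adjusted p = 7.7e-05), Ndrg1 (-1.01, 4.4e-05), Adm (-1.01, 0.00012), P4ha2, Ddit4, Aldoc and Slc2a1, and the gene called higher was Pfkfb4 (0.75, 0.03). The members' median log2 difference was -0.16, against -0.008 over all genes. Egln3 was at 1327, 1848 and 2164 with IL-4 and 2219, 2588 and 1185 with ACs, with overlap (log2 -0.12, 95% interval -0.74 to 0.50). Pgk1 (-0.07, -0.45 to 0.32), Hk2 (-0.16, -0.44 to 0.12) and Hif1a (0.03, -0.31 to 0.37) overlapped too.

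Replicate 3 of the ACs group stood apart here. It is the shallowest library, and it was the lowest of its group for 31 of the 38 genes, a pattern not counted over all genes. The members' median over the group's mean was 0.08 and 0.28 in the other ACs libraries and -0.35 in replicate 3, against -0.28, -0.16 and -0.01 in the IL-4 libraries. Bnip3, for example, was at 3767, 3997 and 4194 with IL-4 and 5668, 6822 and 3115 with ACs. Without the libraries numbered 3, 12 of 37 members were lower with IL-4 and 0 higher, where 2.93% of all genes were lower and 3.25% higher. These were Pfkfb3, Adm, Ndrg1, Aldoc, P4ha2, Ddit4, Aldoa, Bnip3, Slc2a1, Egln3, Slc2a3 and Gpi1, with decreases from 1.52-fold to 2.39-fold, and 34 of 37 estimates were below 0 (median -0.43, against -0.015 over all genes). Only 2 libraries then remain in each group.

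Ddit4 and Pfkfb3 were lower with IL-4 by edgeR and DESeq2 with all libraries. Ddit4 was at 174, 197 and 257 with IL-4 and 344, 352 and 407 with ACs, without overlap (log2 -0.83 ± 0.18, adjusted p = 0.087 with limma, 0.016 with edgeR and 0.0046 with DESeq2). Pfkfb3 was at 162, 216 and 272 with IL-4 and 396, 508 and 263 with ACs (log2 -0.82 ± 0.26, adjusted p = 0.33, 0.041 and 0.016). In Pfkfb3 the third ACs library fell among those with IL-4.

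**Figure D5:**
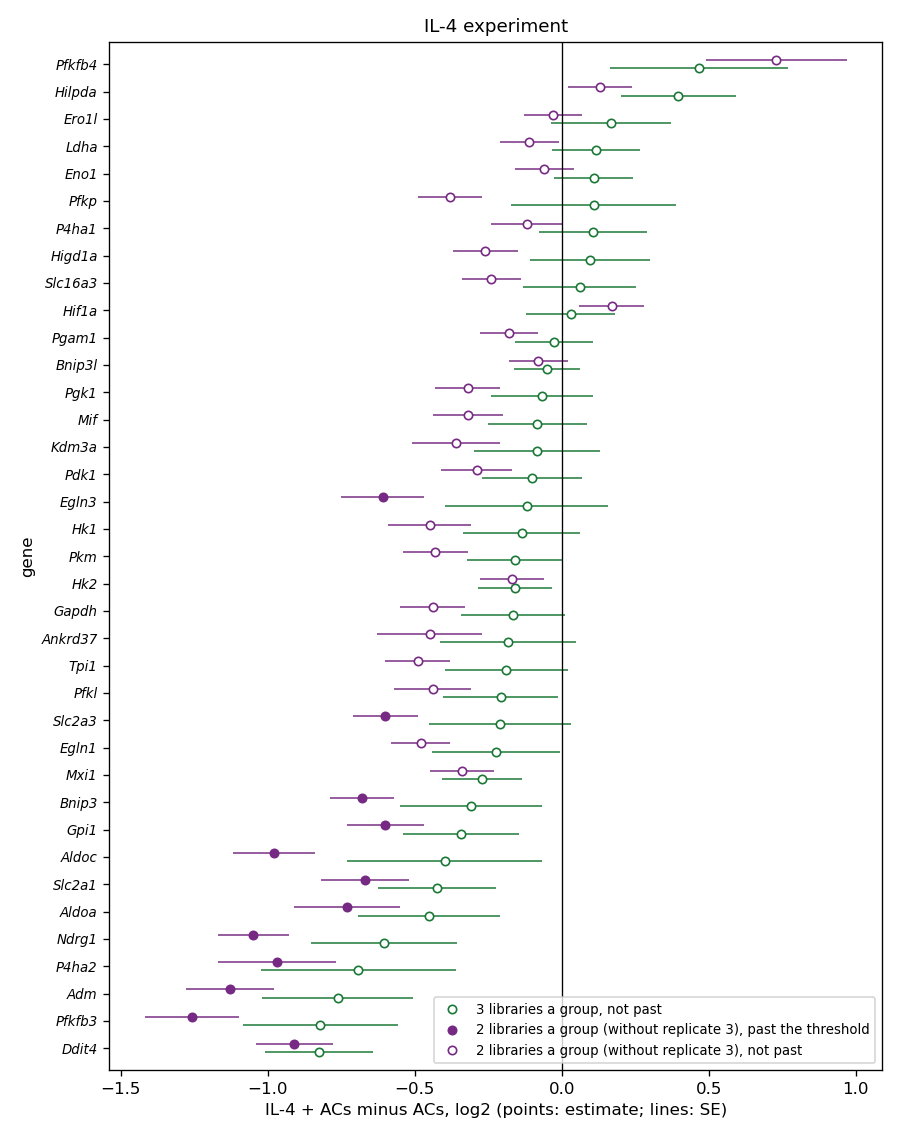
Log2 difference of the IL-4 group from its ACs group for the 37 genes tested, with SE, for 3 libraries a group (green) and without replicate 3 (purple), filled where past the threshold. With all libraries, equally weighted, no point is filled, and without replicate 3 most estimates are further left and 12 points are filled.

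The groups with ACs and no stimulus were far apart between the experiments. Of 37 genes, 33 were lower in the Type 1 experiment than in the IL-4 experiment and 1 was higher, where 10.7% of all genes were lower and 8.53% higher. The median log2 difference was -2.46, against -0.021 over all 10592 genes. Both groups carry the same treatment label, so the difference cannot be told apart from whatever else differed between the experiments. The macrophage markers had a mean sum of 22761 with ACs in the Type 1 experiment and of 35875 in the other, the eosinophil markers of 18728 and 24194, and their part in the difference was not tested.

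Aldoc was at 4.07, 13.1 and 7.34 in the Type 1 experiment and 711, 985 and 332 in the IL-4 experiment, 73.2-fold higher (log2 -6.19 ± 0.44 for Type 1 minus IL-4, adjusted p = 1.7e-05). Mif was at 229, 267 and 199 in the former and 5112, 6598 and 4209 in the latter, 22.6-fold higher. No library of one experiment reached the other for these genes. Ndrg1 (26.7-fold), Bnip3 (14.7-fold), Egln3 (11.1-fold), Pgk1 (8.56-fold), Slc2a3 (8.33-fold) and Hilpda (8.32-fold) were also higher in the IL-4 experiment. Adm had 773 reads over its 3 ACs libraries and 1 in the Type 1 experiment, a ratio of 972 per normalized depth (95% exact binomial interval 174 to 38400).

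Hif1a was at 639.9, 568 and 617 with ACs in the IL-4 experiment, against 622, 738 and 617 in the other. These libraries overlapped, and the log2 difference was 0.11 ± 0.12 (95% interval -0.16 to 0.39, adjusted p = 0.55). Pfkfb4 overlapped as well (0.09 ± 0.31, adjusted p = 0.86), and Pfkfb3 was not called (-0.63 ± 0.23, adjusted p = 0.068) but was with edgeR (0.012) and DESeq2 (0.0097). Ddit4 was the gene higher in the Type 1 experiment (log2 1.26 ± 0.12, adjusted p = 0.00012), without overlap. Without replicate 1 or 2, Gpi1, Hk1 and Kdm3a were no longer called (adjusted p = 0.051 to 0.099).

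The levels with both stimuli in the Type 1 experiment can be set beside those with ACs in the IL-4 experiment. All 3 libraries of the former were below all 3 of the latter for 12 of 38 genes, above them for 9, and overlapped them for 17. The same pattern was not counted over all genes, so these counts do not set the members apart from other genes. These values come from different experiments and were not tested.

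The other genes of these pathways, 109 in all, were taken from lists of related enzymes, partners and targets. Of 82 tested, 6 were higher and 6 lower with E. coli, 30 and 7 with IFN-γ and 32 and 11 with both, where the shares of all genes called were 5.05% and 5.25%, 11.4% and 9.96%, and 14.7% and 17.2%. Their median log2 differences were 0.08, 0.35 and 0.35. Of 26 other low-oxygen response genes tested, 2, 12 and 14 were higher and 2, 1 and 2 lower. Vegfa, the vessel growth factor, had a mean of 103 with ACs, 996 with IFN-γ and 1719.6 with both (log2 3.33 and 4.15, adjusted p = 3.8e-09 and 1e-10). Fam162a, a mitochondrial HIF-1 target, went from 108 to 541 and 1065, and Ak4, a mitochondrial adenylate kinase, was at 1.63, 23.4 and 41.6. Wsb1, a ubiquitin ligase subunit, rose with each stimulus (log2 0.68, 0.80 and 1.75). Others of this list were lower than with ACs. Anxa2 was at 359, 314 and 389 with E. coli, against 726, 803 and 593 with ACs. Bhlhe40 was at 380, 290 and 451 with IFN-γ, against 803, 682 and 770 with ACs.

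Of 13 oxygen-sensing partners tested, 2 were called lower with E. coli, while 2 were higher and 1 lower with IFN-γ and 3 and 2 with both. Over all genes, 5.05% were higher and 5.25% lower with E. coli, 11.4% and 9.96% with IFN-γ, and 14.7% and 17.2% with both. With so few partners, their counts are not read as a result about that list. Epas1, which encodes HIF-2α, fell with E. coli (mean of 37.4 against 118 with ACs, log2 -1.67, adjusted p = 0.0018) and with both (12.5, log2 -3.24, adjusted p = 2.9e-07). Cited2, which competes with HIF-1 for its coactivator, fell with each stimulus (log2 -1.01, -1.25 and -1.59). Arnt, the partner of HIF-1α, rose with IFN-γ and with both (log2 0.88 and 0.75), and Vhl with both (1.30). Of 11 other glycolysis and lactate genes tested, 1 was called lower with E. coli, while 5 were higher and 1 lower with IFN-γ and 5 and 2 with both. Hk3, a hexokinase of myeloid cells, rose with IFN-γ (mean of 1179 against 232, log2 2.35).

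In the IL-4 experiment 2 of 85 genes of these lists passed, both higher with IL-4, where 0.74% of all genes were higher and 0.347% lower. They were Cited2 (mean of 803 against 314, log2 1.32, adjusted p = 0.015) and Car12, a carbonic anhydrase of the cell surface (95.2 against 9.44, log2 3.33, adjusted p = 0.0048). Between the ACs groups, 29 of 85 were lower in the Type 1 experiment and 3 higher, where 10.7% of all genes were lower and 8.53% higher. Fam162a was lower there (108 against 1560.3, log2 -3.85), as was Bsg, the chaperone of the lactate carriers (605 against 2915, log2 -2.21). Ndufa4l2, a HIF-1 target in mitochondria, was at 0 in the Type 1 ACs libraries and had a mean of 22.3 in those of the IL-4 experiment. Hif3a, a HIF subunit that can dampen the response, was higher in the Type 1 experiment (29.6 against 8.42, log2 1.72, adjusted p = 0.012).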

How the data were processed

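The 18 libraries were made from 2 ng of RNA each by CEL-Seq2, which reads the 3′ end of a transcript, and values of different genes are not compared. The authors deposited 1 table of normalized signal, reads on each gene divided by 1 factor per library. The submitters' processing notes name FastQC 0.11.5, Trim Galore, cutadapt 1.10, TopHat2 2.1.0, Bowtie2 2.2.6, HTSeq 0.6.1, DESeq2 1.26.0 and GRCm38, while the paper's methods also describe trimming with fastp and alignment with STAR without saying which made the table. Whole reads were recovered for 100.0% of values (within 0.02 of a whole number), and the factors were 0.828 to 0.884 times those of a joint DESeq2 normalization, so all libraries were taken as scaled together. By the methods, experiments had 3 biological replicates. Deviations from the group means correlated at 0.169 to 0.245 in the 3 same-numbered pairs of the IFN-γ group and the group with both, and at -0.162 to 0.02 in their other 6 pairs, so these groups were taken as paired, from the data and not from a label. No other groups within an experiment met this bar. Between the E. coli and IFN-γ groups, same-numbered pairs were at -0.125, -0.111 and -0.122, while a differently numbered pair reached 0.125. The pairing is therefore tentative.

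Differences were tested with limma 3.58.1 in R 4.3.3 (lmFit, eBayes with trend) on log2(normalized count + 1), for genes with a mean of at least 10 over the libraries of the fit. Contrasts within the Type 1 experiment used its 12 libraries, and the others 6 each. A call needed a Benjamini-Hochberg adjusted p under 0.05 over all genes and 1.5-fold. The method was tested on simulated counts. These held changes well above 1.5-fold and no outlying library, so that test does not bear on calls near the limit. The alternatives were a pseudocount of 5, every gene above 0 or a mean of at least 50, a common upper quartile, array weights, the replicate number as a block, edgeR 4.0.16 or DESeq2 1.42.0 with recovered reads, no fold limit, 1 fit of all 18 libraries, and each replicate number left out. The contrast of both stimuli with IFN-γ, a closer reading of the IL-4 contrast without replicate 3, and a replicate block within the IFN-γ groups, were chosen after seeing the data. All listed genes were described, and of each other list up to 4 called genes with the largest differences in a contrast could be named. The genes and lists were chosen with earlier results of these data known. Promoter windows are RefSeq's.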

Additional observations from a re-analysis of the deposited data

Results flagged for a closer look

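The difference that E. coli made was unequal without and with IFN-γ for 9 members, by the interaction term of limma over the 12 libraries of the Type 1 experiment. The share of all genes was 3.16% for a larger difference and 4.28% for a smaller one, and the members' median was -0.004. On the log2 scale, the difference with IFN-γ exceeded that without it by 1.94 for Slc2a3, 0.86 for Pfkp, 0.85 for Hk1, 0.82 for Hk2, 0.81 for Mxi1, 0.67 for Ero1l and 0.64 for Bnip3. It was smaller with IFN-γ for Pfkfb3 (-0.69) and Hilpda (-1.11). In Hk1, Mxi1 and Slc2a3 the estimate without IFN-γ was below 0 and the estimate with it was above 0, and in Hilpda the reverse. None of the 7 larger differences was called without replicate 1 or without replicate 2.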

How the results depend on the processing

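No member changed direction among called values under any alternative run. Over all comparisons, 3701 single values kept their side of the threshold, 80 lost it and 77 gained it. These counts of members moved by more than 1.5 times.

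Lower with IFN-γ went from 0 to 1 with array weights, and lower with both stimuli from 0 to 1 with the common upper quartile or no fold limit. The upper quartile moved the median of all genes with both stimuli from -0.05 to -0.18 and that of the members from 2.17 to 2.04. Higher with E. coli than with IFN-γ went from 1 to 0 with every gene above 0, with edgeR, with DESeq2 and with all 18 libraries. At a mean of at least 50 it was also 0, because Pfkfb4 did not pass that filter and was not tested. The larger interactions went from 7 to 4 with all 18 libraries, and the smaller ones from 2 to 1 with that fit or with every gene above 0. With IL-4, lower went from 0 to 2 with every gene above 0, with edgeR, with DESeq2 and with all 18 libraries, and to 7 with array weights, where higher went from 0 to 1. The cause was not tested.

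Leaving out each replicate number in turn gave 12 to 14 higher with E. coli, 28 to 29 higher and 0 to 1 lower with IFN-γ, and 32 to 34 higher and 0 to 1 lower with both. It gave 0 higher and 24 to 27 lower for E. coli against IFN-γ, 0 to 9 larger and 0 to 1 smaller interactions, 10 to 17 higher for E. coli in the presence of IFN-γ, 0 to 12 lower with IL-4, and 30 to 34 lower between the ACs groups.

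Same-numbered libraries of the IFN-γ group and of that with both deviated together, and with a block within these groups the count higher with both than with IFN-γ stayed at 16. Elsewhere the number did not pair libraries (correlations of -0.13 to 0.12 in the Type 1 and 0.01 to 0.06 in the IL-4 experiment). With the replicate block over a whole fit Aldoa joined the smaller interactions (log2 -0.64, adjusted p = 0.048), Ero1l left the larger ones (0.053), Pfkfb3 was lower in the Type 1 ACs (0.027), and no other member's call changed. Over all genes, the IL-4 calls went from 79 higher and 37 lower to 345 and 311 without replicate 3, and to 389 and 356 with array weights. In the IL-4 experiment 3 reads stand for a normalized count of up to 16.1, which limits what the shallow libraries show for low members.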

Other observations

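Genes of glycogen handling changed with IFN-γ as well. Of 12 tested, 7 were higher and 2 lower with IFN-γ, where 11.4% and 9.96% of all genes were called, and 6 and 1 with both stimuli, where 14.7% and 17.2% were. With E. coli none was called by limma or edgeR and 1 was higher by DESeq2, and at an unadjusted p under 0.05 3, 2 and 2 were higher and 0 lower by these tools. Gys1, glycogen synthase, had a mean of 41.0 with ACs, 266 with IFN-γ and 464 with both (log2 2.75 and 3.52, adjusted p = 6.9e-08 and 1.5e-09, limma). Pgm1, which joins glycogen to glycolysis, went from 125 to 463 and 777, and Gbe1, the branching enzyme, from 429 to 1501 and 1124. Ppp1r3b, which brings a phosphatase to glycogen, went from 31.8 to 90.2 and 171. With ACs in the IL-4 experiment Gys1 had a mean of 499 and Pgm1 of 834, and both were lower in the Type 1 experiment (log2 -3.61 and -2.69).

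In the pentose phosphate pathway, 9 genes tested, G6pdx and Pgd, its NADPH-making enzymes, rose with each stimulus (log2 0.61, 0.59 and 1.16 for G6pdx, and 0.79, 0.96 and 1.39 for Pgd). No other gene of this list was called higher, and H6pd (-0.67) and Pgls (-0.94) fell with both. Among 11 genes of pyruvate entry into mitochondria, Mpc1, a pyruvate carrier subunit, and Pdk3, a kinase that restrains pyruvate dehydrogenase, rose with each stimulus (with both, log2 1.25 and 1.44), while its relative Pdk2 fell with each (mean of 56.0 with ACs, and 15.2, 13.1 and 7.69). Of these 11, 2 were higher and 1 lower with E. coli, and 2 and 2 with IFN-γ and with both. Their median log2 difference with both was -0.16, and that of the pentose phosphate genes -0.24. Over all genes, 5.05% were higher and 5.25% lower with E. coli, 11.4% and 9.96% with IFN-γ, and 14.7% and 17.2% with both.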
